A study of Mus musculus with 6 samples.

Results

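The genes described here encode the machinery that starts and carries out DNA replication: the factors that license origins, the replicative helicase, the polymerases, the sliding clamp and its loader, the single-strand binding complex, the enzymes that supply dNTPs and the factors that protect the fork. They were taken by gene symbol from a list of 49, and all 49 were among the 35869 genes listed for each library. The cells were mouse acute myeloid leukaemia cells that a retroviral MLL-AF9, the oncogenic fusion found in human leukaemias, had transformed; they grew with SCF, IL6 and IL3. All cells had floxed Chaf1b, the gene of a CAF-1 histone chaperone subunit, and the CreERT2 recombinase, which acts once an oestrogen receptor ligand is present. The 3 KO libraries came from cells given B-estradiol and the 3 WT libraries from cells given ethanol vehicle, with lysis 48 hours after induction. The label WT thus means floxed cells without the ligand, and B-estradiol and the deletion cannot be told apart, because no group held one without the other. The cells are described as clones, but the labels do not say how many clones there were or whether replicates were separate cultures, so the p-values rest on the spread of these libraries, part or all of which may be technical. Levels are in TPM, which is corrected for transcript length, so that genes as well as libraries can be compared; TPM keeps no read totals, and the labels give only a nominal depth of about 120 M reads for every library. Where 3 values of a group are given, they are replicates 1, 2 and 3 in that order.

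An origin is licensed in G1, when the origin recognition complex, Cdc6 and Cdt1 load the MCM2-7 ring onto DNA, and geminin blocks Cdt1 afterwards so that each origin fires once in a cycle. The kinase Cdc7 with Dbf4 then helps turn the ring into an active helicase with Cdc45 and the GINS complex, and polymerases alpha, delta and epsilon copy the strands behind it. Most of these genes are transcribed in late G1 and S phase under E2F transcription factors, and a myeloid leukaemia that divides quickly expresses all of them. CAF-1 works at the same forks, where it is bound by the clamp PCNA and places new histones on the copied DNA.

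Promoters were searched for the letters that E2F factors are known to bind, because this control is what the genes are best known to share. RefSeq promoter windows (GRCm38.p6, from 250 bases before to 50 bases after a gene's start) were found for 40 of the 49 genes, 49 windows in all. The search used 4 words, TTTCCCGC, TTTGGCGC, TTTCGCGC and TTTGCCGC, on both strands, and words on opposite strands may overlap each other. At least 1 word lay in 15 of the 49 windows (30.6%), each of a different gene, against 744 of all 32851 windows (2.26%). The CCAAT box, also read on both strands, lay in 25 of the 49 windows (51.0%) and in 37.4% of all windows. Of the 4 genes that differed between KO and WT below, Cdt1 and Pold1 held an E2F word in the window, whereas for Pold2 and Tk1 these letters were not in it. A match describes letters and is not a measured binding site. The Mcm2 window held none of the 4 words, and no window was found for Mcm4. Their log2 fold changes between KO and WT (-0.17 and -0.14) were like those of the other MCM2-7 genes, and a link between words and differences was not tested. The stretches below show the E2F word in capitals with up to 10 bases of flank. They are those of Cdt1 and Pold1 and of 4 subunits of the MCM2-7 ring, which Cdt1 helps to load.
Cdt1, chr8:122568037-122568064, plus strand, 32 bases after the start: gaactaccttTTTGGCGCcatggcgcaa
Pold1, chr7:44548766-44548786, plus strand, 39 bases after the start: gctTTTCCCGCcacaagatac
Mcm3, chr1:20820276-20820303, plus strand, 19 bases after the start: cttcccaagtTTTCCCGCcacggaagtt
Mcm5, chr8:75109350-75109377, minus strand, 149 bases before the start: ggctggacgtTTTGGCGCgaaagttctt
Mcm6, chr1:128359735-128359762, minus strand, 47 bases before the start: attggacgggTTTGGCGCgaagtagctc
Mcm7, chr5:138172031-138172058, plus strand, 165 bases before the start: ggacaccctgTTTCCCGCggttcgaaat
The 6 stretches hold the words TTTGGCGC and TTTCCCGC 3 times each, and Mcm3, Mcm5, Mcm6 and Mcm7 also have further words in their windows.

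The libraries were checked before the genes were compared. Chaf1b (chromosome 16, 93883900 to 93906115) stood at 17.7, 14.4 and 14.2 TPM in the KO libraries and 48.6, 49 and 50.6 TPM in the WT libraries, so that its KO mean was 31.2% of the WT mean (log2 fold change -1.62, SE 0.09, limma adjusted p = 0.0058; exact two-sided permutation p = 0.1, the smallest that 3 against 3 libraries allow). Leaving out KO replicate 3 raised the limma adjusted p of Chaf1b to 0.070. KO replicate 1 and WT replicate 1 stood apart from the other libraries of their groups: replicates 2 and 3 correlated across genes at a Pearson's r of 0.998 in KO and likewise in WT, while replicates 1 and 2 correlated at 0.991 in KO and at 0.984 in WT. In its column header WT replicate 1 alone has a remark about a replacement, whose meaning is not known. Of the 9 markers of myeloid progenitors and primary granules, Elane, Prtn3 and Ctsg were at 1152 TPM or more in every library and Kit, Cd34, Spi1 and Cebpa between 33.5 and 152.1 TPM, while Flt3 was at 1.1 to 1.8 TPM. Mpo, the myeloperoxidase of primary granules, was at 1017.6, 2311.4 and 2232.8 TPM in KO and only 19.4, 127.6 and 83.8 TPM in WT (log2 fold change 4.84, limma adjusted p = 0.015). The 5 listed T cell markers and 3 of the 4 B cell markers stayed below 1 TPM in all 6 libraries. The 6 erythroid markers summed to 16.4, 24.2 and 20.5 TPM in KO and 15.6, 10.5 and 9.8 TPM in WT. Of these, Klf1 rose to 3.6, 5.1 and 4.6 TPM in KO, against 1.5, 1.3 and 2.2 TPM in WT (limma adjusted p = 0.016). Gata1 rose to 2.4, 4.2 and 3.9 TPM in KO, against 1.4, 0.8 and 1.1 TPM in WT (limma adjusted p = 0.020). Hba-a1 and Hbb-bt overlapped and were not called, and the log2 fold change of Hbb-bt was below 0 (-0.54). The 7 macrophage markers summed to 59.9 to 64.1 TPM in KO and 48.9 to 77.3 TPM in WT, nearly all of it Adgre1, while Mrc1 was at 0.6 to 1.8 TPM in KO and 0.1 TPM in WT. The 5 markers of stroma and endothelium summed to 65.4 to 71.0 TPM in KO and 61.0 to 79.7 TPM in WT, nearly all of it Pecam1; Col1a1 rose to 1.4, 2.8 and 2.2 TPM in KO, against 0.6, 0.2 and 0.3 TPM in WT (adjusted p = 0.018 by limma), while Cdh5 was at 0.5 to 1.5 TPM in KO and listed at 0 in WT. The 9 progenitor and primary granule markers summed to 10295, 13076 and 13604 TPM in KO and 6735, 7030 and 7428 TPM in WT, mostly from Mpo, Elane, Prtn3 and Ctsg. Kit and Cebpa were also higher in every KO library, and Flt3 and Spi1 overlapped. Cd34 went the other way, at 91.5, 83.2 and 79.8 TPM in KO and 138.2, 102.9 and 106.9 TPM in WT (limma adjusted p = 0.053). The 12 late granulocyte markers summed to 686, 1548 and 1381 TPM in the KO libraries and to 489, 119 and 151 TPM in the WT libraries. Single members did not all follow that sum, as given below. In KO the late granulocyte sum was mostly S100a8, S100a9 and Lcn2 (558.3, 267.1 and 533.6 TPM in KO replicate 2). Mmp8, Ltf and Retnlg were at 0.9 TPM or less in every KO library. The sum describes these transcripts and is not a count of late granulocytes. The part of any of these markers in the values of the replication genes was not tested.

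Most replication genes lay close to their WT level in KO cells, and few passed the test. Of the 49 genes, 3 fell (Cdt1, Pold1 and Pold2) and 1 rose (Tk1), in limma on log2(TPM + 1) with Benjamini-Hochberg adjustment over all 13575 tested genes and a threshold of 0.05. The 3 lower genes are 6.12% of the list, beside 6.11% of all tested genes, and the 1 higher gene is 2.04% of it, beside 12.9% of all tested genes; both directions together were 19.0% of all tested genes. Among tested genes with a mean of 10 TPM or more, 9.29% were lower and 8.47% higher. A share of lower calls this near the background is not a result about these genes. An unadjusted p under 0.05 was found for 12 of the 49, beside 5161 of all 13575 tested genes. The unadjusted counts of single groups given below have this same background. Over all genes the calls numbered 1745 higher and 830 lower, and under quantile normalization 1346 higher and 1722 lower. All 49 passed the filter of at least 1 TPM in at least 3 libraries; the lowest value in any library was 3.4 TPM, for Orc4, so the filter chose none of them through 1 group.

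The sizes were small throughout. The 49 log2 fold changes, KO minus WT, lay between -0.40 and 0.27, with a median of -0.08, beside 0.01 for all tested genes and -0.05 for the 8134 tested genes averaging 10 TPM or more. The 95% intervals of all 49 lay within 1 of 0 on this scale, and those of 45 within 0.5. A log2 fold change was below 0 for 37 of the 49 genes (75.5%), beside 48.9% of all tested genes; under median-ratio scaling, which moves all genes together, it was below 0 for 30. The 4 calls were lost in every fit without KO replicate 2, KO replicate 3, WT replicate 2 or WT replicate 3. In those 4 fits limma called 0 of the 49, and 6, 6, 7 and 7 of them had an unadjusted p under 0.05. Over all tested genes the same fits called 0.803%, 0.0%, 0.184% and 0.11%, and gave 23.7%, 24.9%, 28.2% and 28.6% an unadjusted p under 0.05, so the 0 is not a result about these genes.

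**Figure D1:**
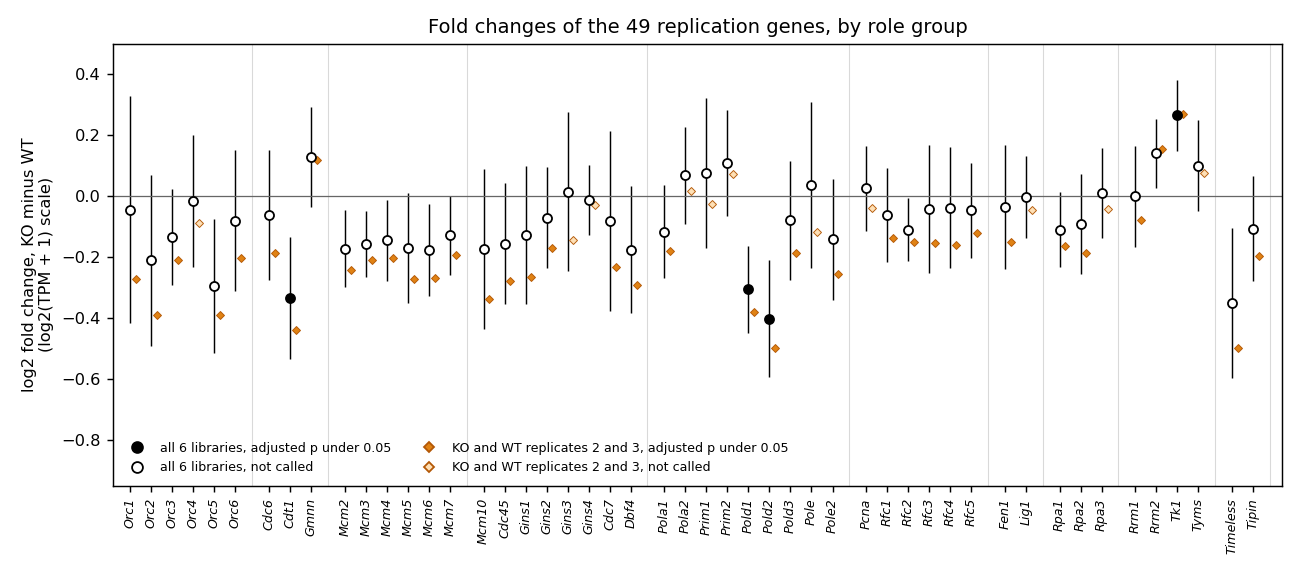
Log2 fold change, KO minus WT on the log2(TPM + 1) scale, of the 49 genes in their 10 role groups; circles with bars are the fit to all 6 libraries with 95% intervals (filled where the adjusted p is under 0.05), diamonds the fit to replicates 2 and 3 of each group. Cdt1, Pold1 and Pold2 are the filled circles below 0 and Tk1 the one above it, and with replicates 2 and 3 alone 35 genes were called lower and 3 higher.

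Which libraries stood high and low was much the same from gene to gene. WT replicate 1 was the lowest of the 3 WT libraries for 47 of the 49 genes, against 43.3% of all tested genes, and it lay below all 3 KO libraries for 23 (46.9%, against 40.1% of all tested genes). KO replicate 1 was the highest KO library for 37 of the 49 genes, against 44.1% of all tested genes. WT replicates 2 and 3 both lay above all 3 KO libraries for 39 (79.6%), against 32.7% of all tested genes. These backgrounds include genes with a mean below 10 TPM, and whether level accounts for part of the contrasts was not tested. The share of log2 fold changes below 0 and the calls in fits without replicates 1 have this same limit. The summed TPM of the 49 genes was 6324, 6146 and 6106 in KO replicates 1, 2 and 3, against 6033, 6709 and 6723 in WT replicates 1, 2 and 3. WT replicate 1 had the lowest sum of all 6 libraries. Its late granulocyte sum was the highest of the WT libraries but lower than that of each KO library. Single late granulocyte markers went both ways. In WT replicate 1, Ly6g (62.0 TPM), Ngp (109.5 TPM), Mmp9 (14.9 TPM) and Mmp8 (7.4 TPM) stood above every KO library. Ltf, Camp, Retnlg, Cd177, S100a8, S100a9 and Lcn2 stood below every KO library there, and Cxcr2 lay within the KO range. For 13 of the 49 genes the KO and WT ranges were separate, with 10 lower (20.4%, beside 19.5% of all tested genes) and 3 higher (6.12%, beside 23.4%).

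**Figure D2:**
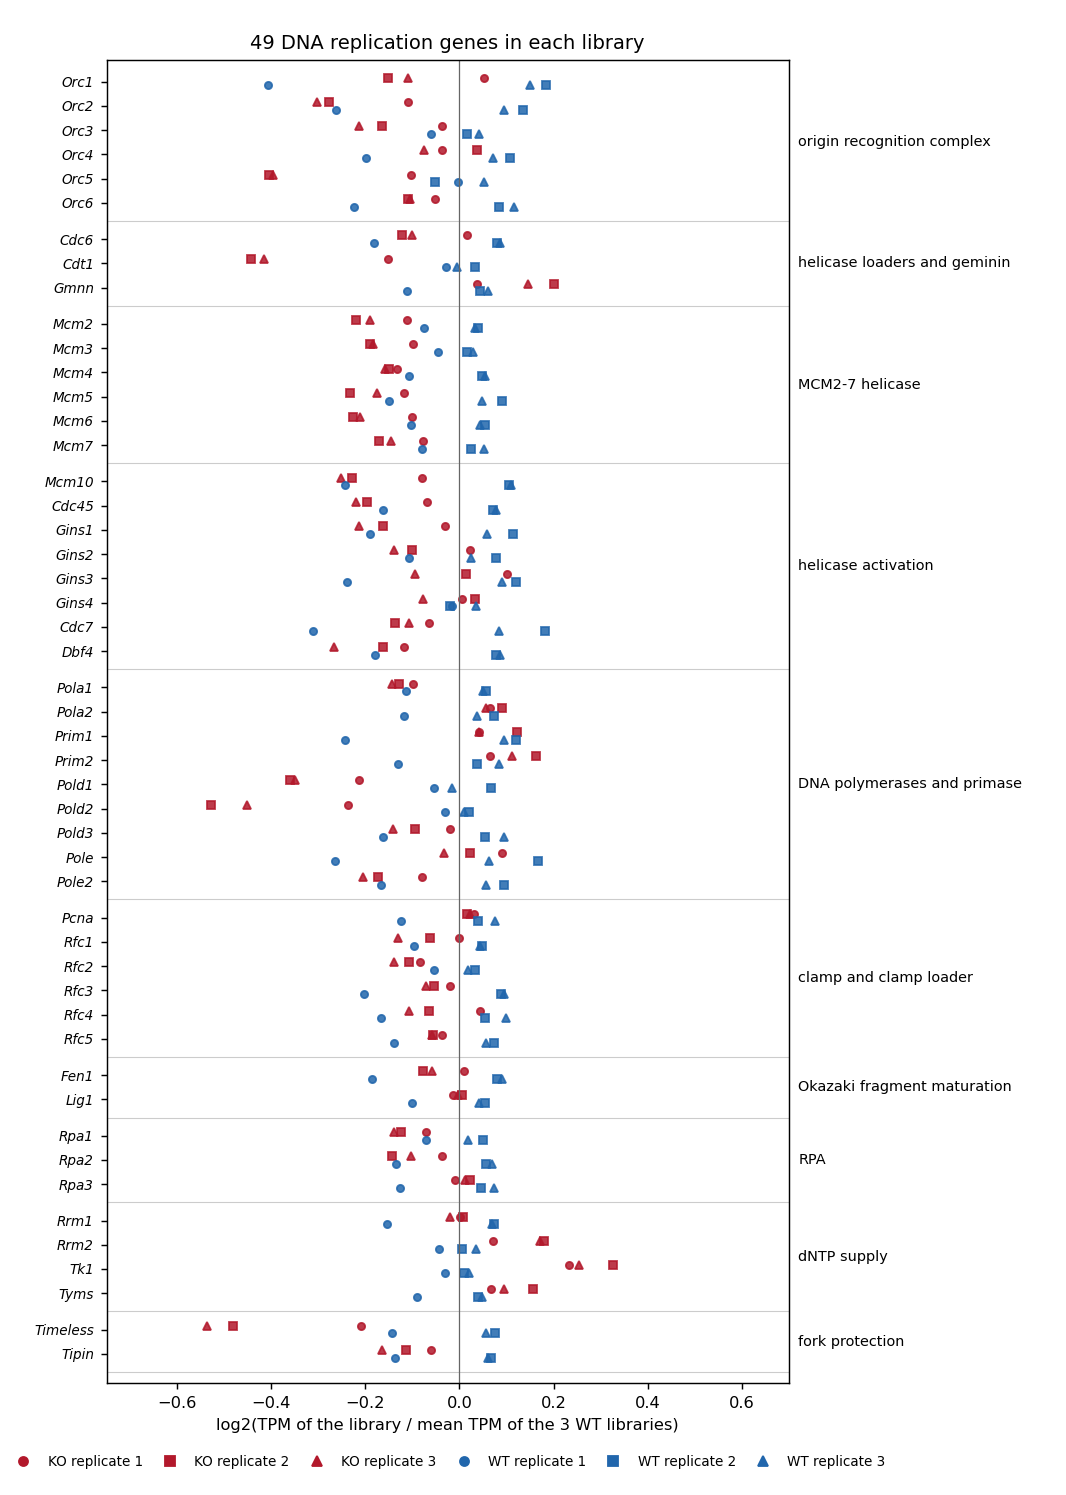
Each library's TPM of the 49 genes as log2 of its ratio to the mean of the 3 WT libraries, with KO in red above WT in blue on each row and the shape giving the replicate number. For 47 genes WT replicate 1 (blue circle) lies left of WT replicates 2 and 3, and for 37 KO replicate 1 (red circle) lies right of KO replicates 2 and 3.

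Without KO replicate 1 and WT replicate 1, many more genes were called, here and over all genes. In that fit to 2 libraries a group, which called 55.8% of all tested genes, 35 of the 49 were called lower (71.4%, beside 27.3% of all tested genes) and 3 higher (6.12%, beside 28.4%), with a median log2 fold change of -0.19, beside -0.00 for all tested genes. The 3 higher were Gmnn (0.12), Rrm2 (0.15) and Tk1 (0.27). The 35 lower were spread over every role group. They were 5 of 6 origin recognition complex, 2 of 3 loader and geminin, 6 of 6 MCM2-7 and 6 of 8 helicase activation genes. The polymerase and primase group had 5 of 9, the clamp and loader group 5 of 6 and the Okazaki fragment group 1 of 2. RPA had 2 of 3, dNTP supply 1 of 4 and fork protection 2 of 2. With only WT replicate 1 left out, 24 of the 49 were called lower, beside 14.2% of all tested genes, and 1 higher, with a median of -0.16; that fit called 35.7% of all tested genes in either direction. With only KO replicate 1 left out the counts were 7 lower, beside 11.9% of all tested genes, and 2 higher, in a fit that called 27.1% of all tested genes. So the count of lower replication genes moved between 0 and 35 with the libraries used. The list's median log2 fold change stayed below 0 in each of the 17 alternatives run. Under quantile normalization it was -0.084, close to the median of -0.073 for all tested genes, so the sign there is not particular to the list. In bulk RNA, fewer cells in S phase and less of these transcripts per cell cannot be told apart.

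Origin recognition complex genes, whose products mark the origins, differed among themselves by more than 10-fold in level and little between the groups. Orc6 had the highest level, at 46.2, 44.4 and 44.5 TPM in the KO libraries and 41.0, 50.8 and 51.9 TPM in the WT libraries. Orc4 had the lowest, between 3.7 and 4.0 TPM in KO and between 3.4 and 4.2 TPM in WT. Both overlapped between the groups. Orc5, which encodes an ATP-binding subunit, was at 41.3, 33.5 and 33.7 TPM in KO and at 44.3, 42.8 and 46.0 TPM in WT. All its KO values lay below all its WT values, with KO replicate 1 closest to them (log2 fold change -0.29, SE 0.09, limma adjusted p = 0.067). None of the 6 ORC genes was called by limma, and 1 had an unadjusted p under 0.05. Without both replicates 1, 5 of them, all but Orc4, were called lower, beside 27.3% of all tested genes.

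Of the helicase loaders, Cdt1 was lower in KO cells. Cdt1 (chromosome 8, 122568015 to 122573130), which brings the MCM2-7 ring to ORC, was at 158.3, 129.5 and 132.0 TPM in the KO libraries and 172.5, 180.1 and 175.3 TPM in the WT libraries. Every KO value lay below every WT value, and KO replicate 1 lay between the others of its group and WT. It fell to a mean of 140 ± 16.0 TPM in KO, against 176 ± 3.84 TPM in WT (SD, n = 3 each; log2 fold change -0.33, SE 0.08, limma adjusted p = 0.041). This call lay near the threshold: it was also lost without the filter on low values (limma adjusted p = 0.056) and without the mean-variance trend (0.053). Gmnn, which encodes geminin, the inhibitor of Cdt1, was at 143.3, 160.4 and 154.4 TPM in KO and at 129.3, 144.0 and 145.6 TPM in WT, with overlap (limma adjusted p = 0.21). Cdc6, the ATPase that works with Cdt1, was at 19.9 to 21.9 TPM in KO and 19.1 to 23.0 TPM in WT.

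**Figure D3:**
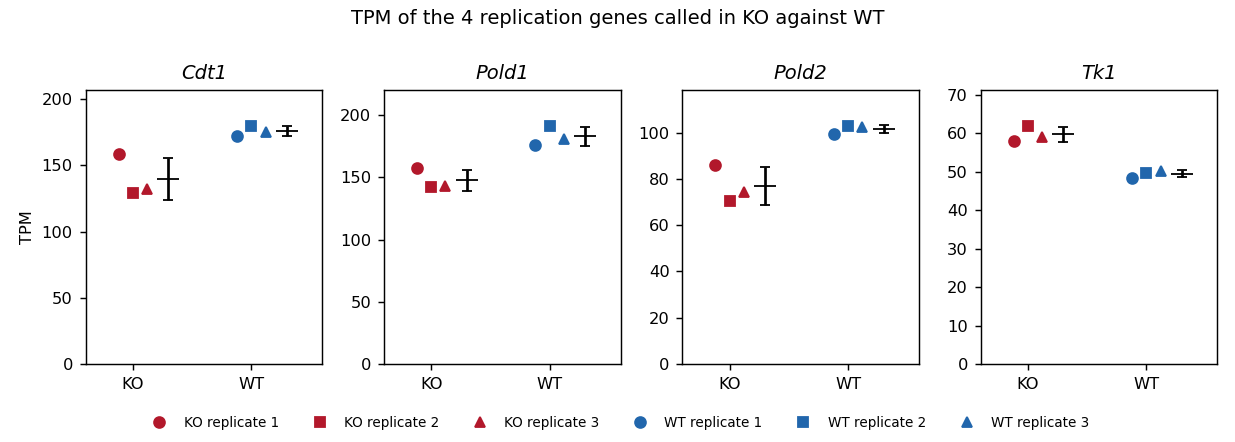
TPM of Cdt1, Pold1, Pold2 and Tk1 in each library, with KO left of WT and the shape giving the replicate number; the dash with a bar beside each group is its mean ± SD of 3 libraries, and each axis starts at 0. For Cdt1, Pold1 and Pold2 all KO values lie below all WT values with KO replicate 1 (circle) the highest of KO, and for Tk1 all KO values lie above.

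The MCM2-7 helicase genes, which encode the ring that unwinds DNA, had differences of like size. All 6 log2 fold changes lay between -0.18 and -0.13, and 0 of the 6 were called by limma. An unadjusted p under 0.05 was found for 4 of them, beside 5161 of all 13575 tested genes. Mcm3 had the highest level, at 515.5, 483.5 and 486.0 TPM in the KO libraries and 534.7, 558.1 and 563.0 TPM in the WT libraries, with no overlap (log2 fold change -0.16, SE 0.04, limma adjusted p = 0.054). Mcm2 (-0.17, adjusted p = 0.064) and Mcm4 (-0.14, adjusted p = 0.11) were likewise lower in every KO library than in every WT library. Mcm7, the least abundant of the 6, was at 95.5, 89.6 and 91.2 TPM in KO and 95.4, 102.6 and 104.5 TPM in WT, where KO replicate 1 and WT replicate 1 were 0.1 TPM apart. Mcm6 had the largest difference, -0.18, with overlap between KO replicate 1 at 219.2 TPM and WT replicate 1 at 218.8 TPM. Summed over the 6 subunits the level was 1567, 1472 and 1488 TPM in KO and 1596, 1734 and 1734 TPM in WT, so the groups did not overlap. All 6 genes were called lower without both replicates 1, in the fit that called 27.3% of all tested genes lower. They were also called lower without WT replicate 1 alone, beside 14.2% of all tested genes.

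Helicase activation genes showed no call in limma among 8, 0 with an unadjusted p under 0.05 and no gene without overlap, at a median log2 fold change of -0.10. Without both replicates 1, 6 of the 8 were called lower, beside 27.3% of all tested genes. Gins2, a GINS subunit, had the highest level, 140.9 to 157.6 TPM in KO and 144.1 to 163.7 TPM in WT; 67.3% of its annotated exon bases are shared with Gse1 on the opposite strand, so its value is uncertain. Cdc7, the kinase, had the lowest level, 9.7 to 10.2 TPM in KO and 8.6 to 12.1 TPM in WT. Its activating subunit Dbf4 had the largest difference in size of the group, with 63.2, 61.3 and 57.0 TPM in the KO libraries and 60.6, 72.4 and 72.8 TPM in the WT libraries (log2 fold change -0.17, limma adjusted p = 0.19). Gins4 lay at 125.3 to 135.1 TPM in KO and 130.3 to 135.4 TPM in WT, with a 95% interval of the log2 fold change from -0.13 to 0.10.

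Of the 9 polymerase and primase genes 2 were called, and both encode subunits of polymerase delta, which makes the lagging strand. Pold1 (chromosome 7, 44532744 to 44548815), its catalytic subunit, was at 157.7, 142.6 and 143.5 TPM in the KO libraries and 176.2, 191.7 and 181.0 TPM in the WT libraries. It fell to a mean of 148 ± 8.47 TPM in KO, against 183 ± 7.93 TPM in WT (SD, n = 3 each; log2 fold change -0.31, SE 0.06, limma adjusted p = 0.024). Pold2 (chromosome 11, 5872180 to 5878256), the accessory subunit bound to it, was at 86.1, 70.4 and 74.2 TPM in KO and at 99.4, 103.0 and 102.2 TPM in WT. Its mean was 76.9 ± 8.19 TPM in KO, 75.7% of the 102 ± 1.89 TPM in WT (SD, n = 3 each; log2 fold change -0.40, SE 0.08, limma adjusted p = 0.025). Neither gene overlapped between the groups. The third subunit on the list, Pold3, was at 27.4 to 29.8 TPM in KO and 27.0 to 32.3 TPM in WT (limma adjusted p = 0.51).

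The remaining polymerase genes were not called. Prim2, the large primase subunit and the least abundant of this group, was at 15.7, 16.8 and 16.2 TPM in KO and at 13.7, 15.4 and 15.9 TPM in WT (log2 fold change 0.11, limma adjusted p = 0.31). Pole, the catalytic subunit of polymerase epsilon, lay at 30.3 to 33.0 TPM in KO and 25.8 to 34.8 TPM in WT, and Pola1, that of polymerase alpha, at 19.5 to 20.1 TPM in KO and 19.9 to 22.4 TPM in WT. In these genes WT replicate 1 was the lowest WT value, and for Prim2 and Pole it was the lowest of all 6 libraries.

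Among the 6 genes of the clamp and its loader none was called by limma, and 1 had an unadjusted p under 0.05. Pcna, which encodes the clamp that binds CAF-1 and the polymerases, was the most abundant of the 49, at 838.6, 830.4 and 834.4 TPM in the KO libraries and 753.8, 844.2 and 865.3 TPM in the WT libraries. Its KO values lay inside the range of its WT values, and its log2 fold change was 0.03, with a 95% interval from -0.11 to 0.17 (limma adjusted p = 0.78). Of the 5 loader genes Rfc2 alone did not overlap, at 266.8, 262.7 and 256.7 TPM in KO and 272.6, 289.6 and 286.4 TPM in WT (log2 fold change -0.11, limma adjusted p = 0.11); 15.1% of its exon bases are shared with Lat2. Rfc1, the large subunit, had the lowest level, 28.8 to 31.5 TPM in KO and 29.5 to 32.6 TPM in WT. Fen1 and Lig1, the nuclease and ligase that finish lagging-strand fragments, had log2 fold changes of -0.04 and -0.00, and 78.8% of the Fen1 exon bases are shared with Gm10143 on the opposite strand.

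Genes of the single-strand binding complex RPA gave no call in limma, and 0 of the 3 had an unadjusted p under 0.05. Rpa3, the small subunit, was at 197.0 to 201.6 TPM in KO and 181.7 to 208.6 TPM in WT. Rpa1, the large subunit, was at 89.0, 85.9 and 84.9 TPM in KO and at 89.1, 96.8 and 94.8 TPM in WT, which did not overlap by 0.1 TPM (log2 fold change -0.11, limma adjusted p = 0.16).

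Of the 4 dNTP supply genes 1 rose, and none had a log2 fold change below 0 with all libraries, although that of Rrm1 was 0.00. Rrm1 was called lower without both replicates 1 (log2 fold change -0.078, limma adjusted p = 0.048) and with array weights (-0.080, limma adjusted p = 0.027). Tk1 (chromosome 11, 117815519 to 117826087), the thymidine kinase of the salvage pathway, was at 58.1, 62.0 and 59.0 TPM in the KO libraries and 48.4, 49.8 and 50.2 TPM in the WT libraries. All KO values lay above all WT values, and here KO replicate 1 and WT replicate 1 were close to the others of their groups. Tk1 rose to a mean of 59.7 ± 2.04 TPM in KO, against 49.5 ± 0.95 TPM in WT (SD, n = 3 each; log2 fold change 0.27, SE 0.05, limma adjusted p = 0.021). Rrm2, the small subunit of ribonucleotide reductase, was at 504.4, 543.7 and 539.9 TPM in KO and at 465.7, 481.9 and 491.9 TPM in WT, again without overlap (log2 fold change 0.14, SE 0.05, limma adjusted p = 0.078). Tyms, thymidylate synthase, was at 15.5, 16.5 and 15.8 TPM in KO and 13.9, 15.2 and 15.3 TPM in WT, without overlap by 0.2 TPM (limma adjusted p = 0.28). Rrm1, the large reductase subunit, was at 400.4 to 407.8 TPM in KO and 364.7 to 427.0 TPM in WT, with a 95% interval of the log2 fold change from -0.17 to 0.17. The group's median log2 fold change of 0.12 was above 0 in each of the 17 alternatives, from 0.089 to 0.17, whereas no other role group had a positive median in the fit to all libraries; the Okazaki group had one under median-ratio scaling, under quantile normalization and without WT replicate 2 or WT replicate 3, and the clamp group under median-ratio scaling.

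Of the fork protection pair, Timeless was far the scarcer transcript. It was at 6.4, 5.3 and 5.1 TPM in the KO libraries and 6.7, 7.8 and 7.7 TPM in the WT libraries, without overlap. Its log2 fold change of -0.35 (SE 0.10) was larger in size than those of Cdt1 and Pold1, and was not called (limma adjusted p = 0.058). Tipin, its partner, was at 33.2, 32.0 and 30.9 TPM in KO and 31.5, 36.3 and 36.1 TPM in WT, with overlap (limma adjusted p = 0.31).

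**Figure D4:**
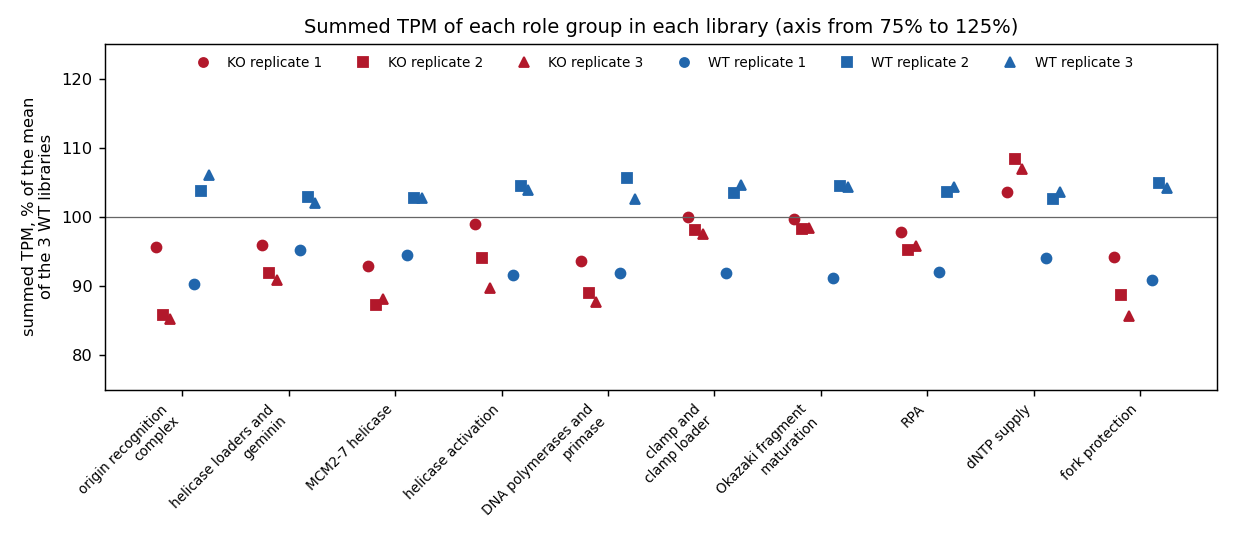
Summed TPM of each of the 10 role groups in each library as a percentage of the mean of the 3 WT libraries, with KO in red left of WT in blue; the axis does not start at 0. MCM2-7 is at 92.8%, 87.2% and 88.2% in KO replicates 1, 2 and 3 against 94.5%, 102.7% and 102.7% in WT replicates 1, 2 and 3, while dNTP supply is at 103.6%, 108.4% and 106.8% in KO against 94.0%, 102.5% and 103.5% in WT.

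Ratios of partner genes within a library do not change when all its genes are scaled by the same factor. Under quantile normalization, which moves genes by different amounts, they can change. Of 9 such ratios, chosen after values were seen and therefore given without a test, 4 were lower in every KO library than in every WT library. In 1 the ratio was higher, and 4 overlapped. How often ratios of other gene pairs separate the groups was not counted, so these counts are not a result about the pairs. Of single tested genes, 19.5% were lower and 23.4% higher without overlap. Cdt1 to Gmnn, the licensing factor over its inhibitor, was 1.10, 0.807 and 0.855 in KO replicates 1, 2 and 3, against 1.33, 1.25 and 1.2 in WT replicates 1, 2 and 3. Geminin mRNA thus exceeded Cdt1 mRNA in KO replicates 2 and 3, and was below it in the other 4 libraries. Pold2 to Pold3 was 2.89, 2.49 and 2.71 in KO, against 3.68, 3.28 and 3.16 in WT. Pola1 to Pola2, the catalytic and second subunits of polymerase alpha, was 1.26, 1.21 and 1.23 in KO, against 1.41, 1.39 and 1.42 in WT, although neither gene was called. Timeless to Tipin was 0.193, 0.166 and 0.165 in KO, against 0.213, 0.215 and 0.213 in WT. Pole to Pole2 was higher, at 1.37, 1.39 and 1.37 in KO, against 1.14, 1.28 and 1.22 in WT.

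**Figure D5:**
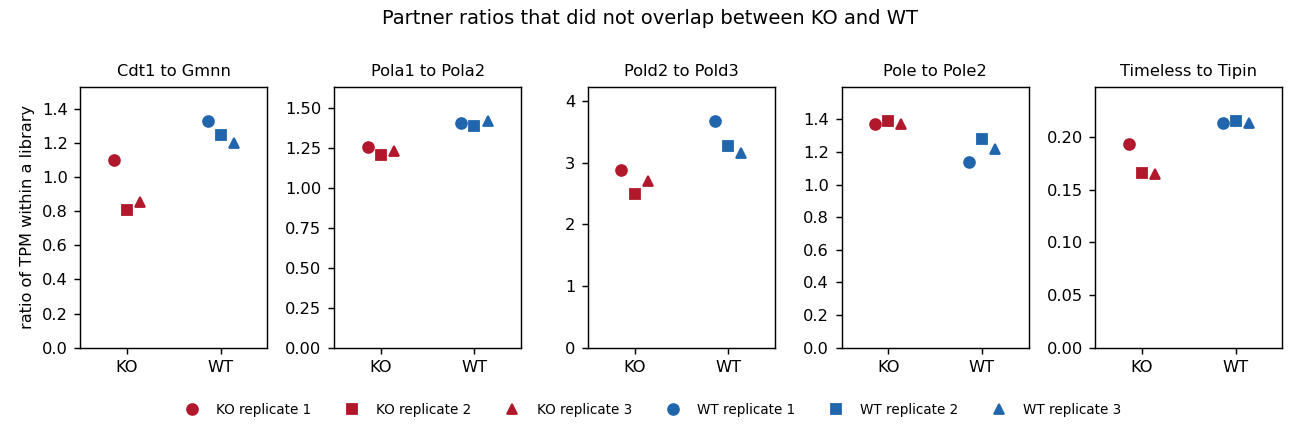
The 5 ratios of TPM between partner genes that did not overlap between KO (red, left) and WT (blue, right), 1 point per library with the shape giving the replicate number and each axis starting at 0. Cdt1 to Gmnn lies between 0.807 and 1.10 in KO and between 1.2 and 1.33 in WT, and Pole to Pole2 is the ratio that is higher in KO.

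Other genes of the pathway, in lists of 13 origin firing factors, 22 fork factors, 7 nucleotide enzymes and 10 S phase checkpoint genes, gave few calls as well. Of these 52 genes, 4 fell and 1 rose, beside the background shares of 6.11% and 12.9%, with a median log2 fold change of -0.06; without both replicates 1 the counts were 29 lower and 4 higher, in the fit that called 27.3% of all tested genes lower and 28.4% higher. Mcmbp, which encodes an MCM-binding protein, fell to a mean of 101 ± 9.57 TPM in KO, against 133 ± 7.31 TPM in WT (SD, n = 3 each; log2 fold change -0.39, limma adjusted p = 0.027). Mtbp, a partner of the firing factor Ticrr, fell to 9.67 ± 1.504 TPM in KO, against 12.9 ± 0.31 TPM in WT (-0.39, limma adjusted p = 0.048), and Chtf18, of the alternative clamp loader, to 26.2 ± 0.91 TPM in KO, against 30.5 ± 0.91 TPM in WT (-0.21, limma adjusted p = 0.043). The nucleotide enzymes went both ways. Dck, deoxycytidine kinase of the salvage pathway, rose to 144 ± 10.5 TPM in KO, against 113 ± 5.67 TPM in WT (0.35, limma adjusted p = 0.024), while Dctd, dCMP deaminase, fell to 7.5 ± 1.31 TPM in KO, against 12.1 ± 1.19 TPM in WT (-0.63, limma adjusted p = 0.026). None of the 10 checkpoint genes was called by limma, and 1 had an unadjusted p under 0.05.

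Exons of 18 of the 49 genes share bases with another annotated gene, 15 of them on the opposite strand (GENCODE M21). The libraries were stranded, but whether counting used the strand is not given in the sources here, so these levels may include reads of the partner. Of the 4 called genes only Tk1 is among them, with 83 of its exon bases shared with Afmid.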

How the data were processed

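The authors deposited TPM per gene symbol for 6 stranded poly(A) RNA libraries (3 KO, 3 WT, grouped by title), 1 file each, with values rounded to 1 decimal. The submitters' processing notes name featureCounts 1.6.2, STAR 2.6.1e, Trim Galore 0.4.2, cutadapt 1.9.1 and the build mm10. Annotation, strand setting and how TPM was computed: not given in the sources used here. Because TPM is relative to the library's total, more RNA of abundant genes lowers the TPM of every other gene.

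The 13575 genes that reached 1 TPM in 3 or more libraries were compared, KO against WT, on log2(TPM + 1) in limma 3.58.1 under R 4.3.3. The model held genotype alone and used limma's trend option; tests were two-sided, with p-values adjusted over every kept gene by Benjamini-Hochberg, and the scale understates changes of low genes. Members, lists and alternatives were chosen with earlier results of these data known. Named were called members, each role group's highest, lowest and most different member, and called members of the other lists; Orc1, Gmnn, Mcm2, Mcm4, Gins4, Pola1, Pold3, Pole and Rrm1, genes named for their overlap or change of sign and the partner ratios were picked after their values were seen. The fit was first tested on simulated data. Identical TPM between 2 libraries of a group was seen in at most 8.48% of kept genes, and every library was kept as its own sample. Alternatives were other pseudocounts, filters, scalings, weights, a replicate block and left-out libraries.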

Additional observations from a re-analysis of the deposited data

How the results depend on the processing

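The direction of Cdt1, Pold1, Pold2, Tk1 and Chaf1b held in all 17 alternatives. Calls over all genes numbered 2575 with all libraries, 1578 with a mean of at least 5 TPM, 9429 with array weights, 333 with the replicate block and 7569 without both replicates 1. Replication genes called lower numbered 3 with all libraries, 36 with array weights, 0 with the replicate block and 35 without both replicates 1, and those called higher 1, 3, 0 and 3. Of all 13575 tested genes, the same 4 fits called 830, 4841, 33 and 3710 lower and 1745, 4588, 300 and 3859 higher. With so few lower calls under the replicate block, the 0 there is not a result about these genes. Array weights gave WT replicate 1 a weight of 0.12 and WT replicate 3 one of 5.86, and the weights did not converge fully. The median log2 fold change of the 49 genes was -0.17 with array weights and -0.19 without both replicates 1. Leaving out 1 library at a time gave 0 to 4850 calls over all genes, 0 to 24 lower and 0 to 2 higher replication genes, medians from -0.16 to -0.037 and log2 fold changes of Chaf1b from -1.72 to -1.57. The labels do not say whether the replicate numbers pair the libraries. Deviations of same-numbered libraries correlated at -0.20, -0.15 and -0.16. This cannot decide the question, because each group had only 3 libraries and replicate 1 stood apart in both groups. With the replicate block 8 of the 49 had an unadjusted p under 0.05, beside 4223 of all 13575 tested genes.

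Genes near 0 changed sign, and the cause was not tested. Under median-ratio scaling, which moved the median of all genes to 0.048, the log2 fold changes were 0.021 for Orc4, 0.034 for Gins4, 0.0049 for Rfc3, 0.0095 for Rfc4, 0.00032 for Rfc5, 0.011 for Fen1 and 0.044 for Lig1. Under quantile normalization, with a median of all genes of -0.073, they were 0.022 for Gins4, -0.017 for Pcna, 0.010 for Rfc3, 0.0034 for Rfc4 and 0.035 for Lig1. With array weights they were -0.15 for Gins3, -0.036 for Prim1, -0.090 for Pole, -0.044 for Pcna, -0.052 for Rpa3 and -0.080 for Rrm1. Without both replicates 1 they were -0.14 for Gins3, -0.026 for Prim1, -0.12 for Pole, -0.038 for Pcna, -0.042 for Rpa3 and -0.078 for Rrm1. Rrm1 was at -2.6e-05 with a pseudocount of 5. Leaving out 1 library, the ranges that crossed 0 were -0.22 to 0.0086 for Cdc7, -0.12 to 0.012 for Fen1, -0.097 to 0.079 for Gins3, -0.035 to 0.019 for Gins4, -0.052 to 0.025 for Lig1, -0.22 to 0.051 for Orc1, -0.092 to 0.029 for Orc4, -0.035 to 0.065 for Pcna, -0.086 to 0.12 for Pole, -0.039 to 0.14 for Prim1, -0.14 to 0.0081 for Rfc3, -0.12 to 0.014 for Rfc4, -0.051 to 0.048 for Rpa3 and -0.075 to 0.038 for Rrm1. TPM keeps no read totals, so no limit set by depth was computed.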

Other observations

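Regulators of these genes and genes of the next cell cycle phase were read from the same fit. Of 18 tested E2F, RB and MuvB regulators, 1 fell and 1 rose, beside 6.11% and 12.9% of all tested genes, with a median log2 fold change of 0.00. E2f4, an E2F that acts mainly as a repressor with pocket proteins, fell to 236.8, 226.6 and 231.7 TPM in the KO libraries (replicates 1, 2 and 3), with 270.6, 269.1 and 272.2 TPM in the WT libraries (log2 fold change -0.22, SE 0.04, limma adjusted p = 0.018). E2f7, an E2F without an activating domain, rose to 12.3, 13.8 and 13.2 TPM in KO, against 9.5, 10.5 and 10.8 TPM in WT (0.32, SE 0.07, limma adjusted p = 0.034). In both genes the groups did not overlap. WT replicate 1 lay between the other WT libraries for E2f4 and was the lowest of them for E2f7.

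Of 23 genes of G2 and mitosis, 0 fell and 1 rose in limma, beside 6.11% and 12.9% of all tested genes, and 4 had an unadjusted p under 0.05. Without both replicates 1 the counts were 12 lower and 2 higher, beside 27.3% and 28.4% of all tested genes. Nusap1, a spindle microtubule protein, rose to 53.8, 60.2 and 54.8 TPM in KO, against 39.6, 43.5 and 44.9 TPM in WT (log2 fold change 0.39, SE 0.07, limma adjusted p = 0.021). The summed TPM of the 23 genes was 3286, 3160 and 3127 in KO replicates 1, 2 and 3, against 3019, 3437 and 3443 in WT replicates 1, 2 and 3, with WT replicate 1 again the lowest of the 6 libraries.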
